A study of Mus musculus with 16 samples.

Results

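The genes described here encode the nuclear subunits of respiratory complexes III, IV and V, and they were followed in 16 RNA-seq libraries from the whole inguinal mammary gland of lactating mice. Members were the protein-coding genes of GENCODE M21 whose symbol is Cyc1 or begins with Uqcr, with Cox4 to Cox8, or with Atp5. The rule gave 45 genes of the 22196 in the files: 9 of complex III, 18 of complex IV and 18 of complex V. Of these, 39 passed the filter on low counts (9, 13 and 17 per complex). The 6 that did not were Cox6a2, Cox6b2, Cox7b2, Cox8b, Cox8c and a second gene that carries the symbol Atp5o (ENSMUSG00000116933.1), and they are given by their counts. The symbol rule also takes in Cox7a2l, known for joining complexes III and IV into supercomplexes, and Atp5s, which RefSeq names Dmac2l and which is not a core subunit of the synthase.

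The study crossed diet with treatment in 4 groups of 4 libraries. NCD control and NCD metformin differ by metformin, a drug that lowers blood glucose and is known as an inhibitor of respiratory complex I. HFD control and HFD metformin differ in the same way under HFD, which the series title calls a lactational high fat diet; the abbreviation NCD is not spelled out. All libraries carry the age label postnatal day 16, and mid-lactation is from the title. The labels give no strain, genotype, dose or route, and do not say that libraries are separate animals, so the p-values measure the spread between these libraries.

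In the respiratory chain, complex III passes electrons from ubiquinol to cytochrome c, complex IV passes them from cytochrome c to oxygen, and both pump protons across the inner mitochondrial membrane. Complex V, the ATP synthase, lets the protons flow back through its membrane part Fo and makes ATP in its catalytic head F1. The mitochondrial genome encodes core subunits of complexes III and IV and part of Fo in complex V. The nucleus encodes the remaining subunits, all of F1 included, and these are imported. The secretory epithelium of the lactating gland is known for its many mitochondria, since milk synthesis uses much ATP.

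Nuclear respiratory genes are known to share promoter elements for NRF1, ETS-family factors such as GABP, YY1, estrogen-related receptors (ERR) and SP1. RefSeq promoters (GRCm38.p6, 250 bases before to 50 after the start) were found for 33 of the 45 members, 36 promoters in all, and searched on both strands. The NRF1 motif GCGCATGC was in 6 of the 36 (16.7%), against 2.7% of all 32851 promoters in the table. The ETS motif CCGGAAG was in 10 (27.8%, against 8.9% of all), YY1 as AAGATGGC in 3 (8.3% against 2.7%) and ERR as TCAAGGTCA in 1 (2.8% against 0.4%). The SP1 motif GGGCGG was in 12 (33.3%), close to the 35.7% of all promoters. The 250 bases before the start are shown for Cox6a1, Atp5b and Atp5g3, members from complexes IV and V that were higher with metformin in the tests below. They are shown because they differ in which motif they hold, and capitals mark the motif matches.
Cox6a1 (chr5:115348959-115349208, minus strand): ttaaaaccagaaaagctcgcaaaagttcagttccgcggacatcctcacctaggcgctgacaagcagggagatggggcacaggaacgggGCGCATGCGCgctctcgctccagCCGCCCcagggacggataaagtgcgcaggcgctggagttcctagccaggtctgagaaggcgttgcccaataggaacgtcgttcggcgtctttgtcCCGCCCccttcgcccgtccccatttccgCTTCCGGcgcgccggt
Atp5b (chr10:128083057-128083306, plus strand): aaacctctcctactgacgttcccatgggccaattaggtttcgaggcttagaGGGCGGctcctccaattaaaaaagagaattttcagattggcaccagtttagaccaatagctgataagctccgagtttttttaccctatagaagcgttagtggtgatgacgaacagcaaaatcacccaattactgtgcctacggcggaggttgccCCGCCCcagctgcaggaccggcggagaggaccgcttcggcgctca
Atp5g3 (chr2:73911327-73911576, minus strand): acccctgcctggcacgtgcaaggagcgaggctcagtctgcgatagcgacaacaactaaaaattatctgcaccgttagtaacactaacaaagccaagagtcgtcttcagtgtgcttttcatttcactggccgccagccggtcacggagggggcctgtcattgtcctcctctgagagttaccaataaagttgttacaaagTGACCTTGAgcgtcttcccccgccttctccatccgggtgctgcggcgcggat
Cox6a1 holds an NRF1 palindrome (the motif and its reverse complement overlap), SP1 letters in 2 places and an ETS match close to the start. Atp5b holds only SP1 letters, in 2 places. Atp5g3 holds the only ERR match among the member promoters searched, on the opposite strand. These matches describe the letters and are not evidence of binding.

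Totals ranged from 8649318 to 39156650 estimated counts per library (median 28944281), with HFD control 4 the shallowest. The labelled tissue was borne out by its markers: 10 luminal and milk genes summed to 509200 to 568500 TPM (a length-adjusted share of transcripts) in the libraries. NCD control 3 stood apart, with summed TPM of 18 skeletal muscle markers at 1522, against 1.03 to 41.2 in the other 15 libraries, and the highest adipocyte marker sum, 1570 against 435 to 1115. The metformin comparisons that rest on it or on HFD control 4 are also given without them. For HFD against NCD without metformin, a range over runs that left out single libraries is given.

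On the TPM scale, which allows for length, the members ranged widely. Uqcr11, a small subunit of complex III, had the highest mean over the 16 libraries (353 TPM), followed by Cox6a1 (295), Cox8a (257) and Cox4i1 (239.7), which belong to complex IV. Within complex III, the small Uqcr11, Uqcr10 (151) and Uqcrh (128) stood above the electron carriers Cyc1 (42.2) and Uqcrfs1 (26.7) and the core proteins Uqcrc2 (31.9) and Uqcrc1 (25.3). In complex V, the catalytic F1 subunit Atp5b (114) stood above Atp5a1 (76.2), its partner in the F1 ring, and above the stalk subunits Atp5d (58.8) and Atp5c1 (43.2). The files measure coding sequence only, and 7 members (Atp5e, Atp5mpl, Cox7c, Cox8a, Cox8b, Uqcr10 and Uqcr11) have an effective length under 30 bases in every library. Atp5k, Cox6b1 and Cox6b2 fall under it in some libraries. For all of these the TPM is uncertain and the place in this order is open to error.

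Together the members took 0.19 to 0.23% of the counts in NCD control and 0.237 to 0.294% in NCD metformin. Under HFD the shares were 0.157 to 0.195% in control and 0.197 to 0.235% in metformin. In both diets every metformin library was above every control library of the same diet. Summed per complex in CPM (counts relative to library size, scaled by TMM), complex III on NCD was 348 ± 39.8 (SD, n = 4) in control and 476 ± 40.3 with metformin, and on HFD 326 ± 42.0 and 429 ± 23.3. Complex IV was 355 ± 36.5, 463 ± 45.5, 332 ± 57.4 and 466 ± 44.3 in the same order. Complex V, the most abundant by this sum, was 1180.0 ± 103, 1577 ± 125, 1139 ± 135 and 1438 ± 89.4. All 3 sums were higher with metformin in both diets, by more than the SD of either group. The relative level of each gene in each library shows the same split.

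**Figure D1:**
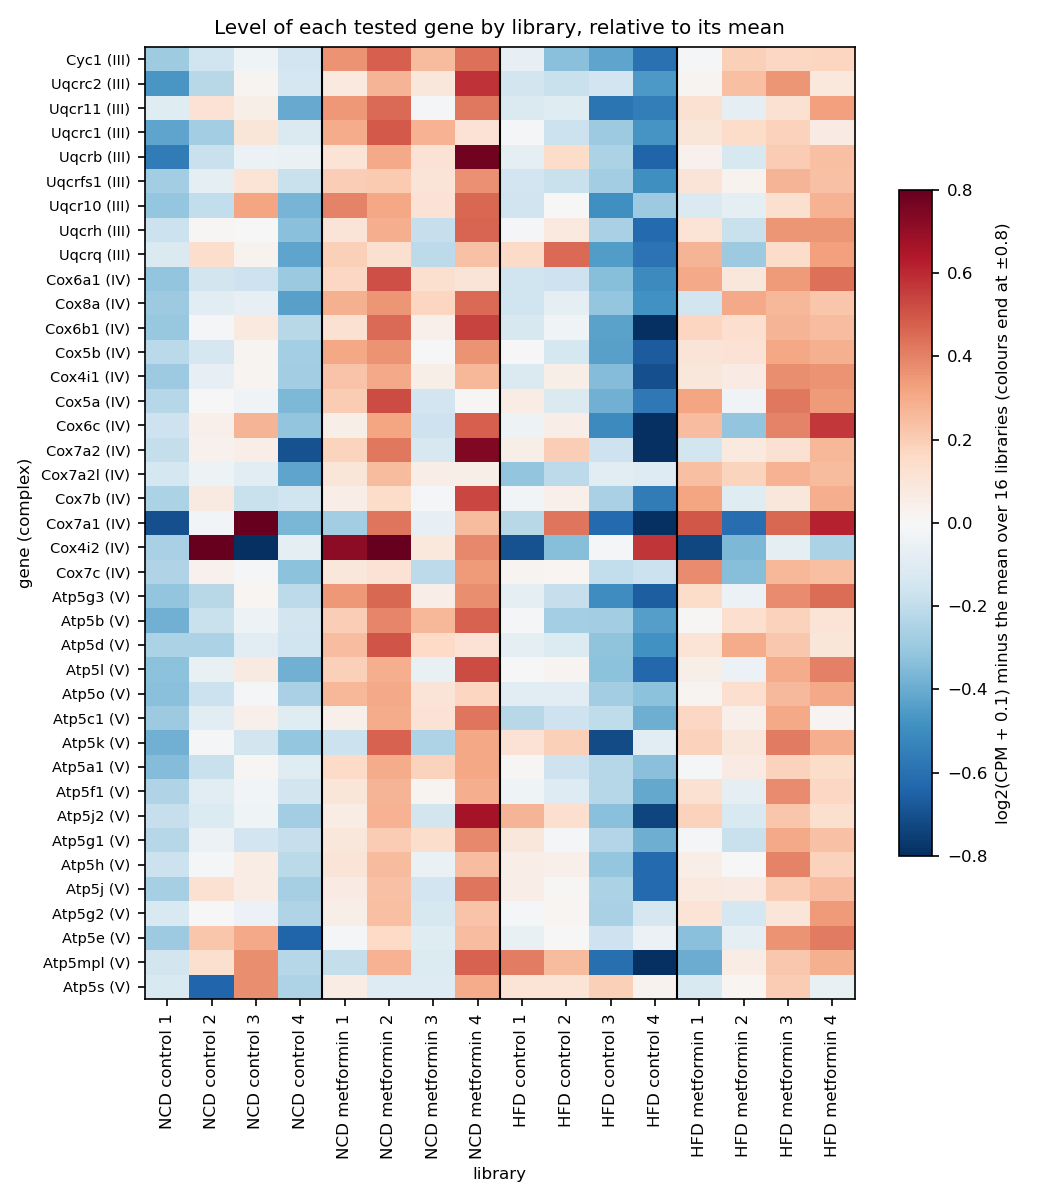
Heat map of the 39 tested genes (vertical axis, by complex) in the 16 libraries (horizontal axis), coloured by log2(CPM + 0.1) minus the mean of the gene over all libraries. The metformin columns of both diets are mostly red and the control columns mostly blue; Cox7a1 and Cox4i2, which have few counts, do not follow this split.

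The first comparison asked how metformin changes these genes on NCD. With metformin, 10 of the 39 tested members were higher and 0 lower, in edgeR's quasi-likelihood test at a Benjamini-Hochberg adjusted p under 0.05 over all 12506 genes tested. Over all genes, 4.01% were called higher and 6.03% lower. The median log2 fold change of the members was 0.36, a 1.29-fold level, against -0.003 over all genes, and 38 of 39 values were positive against 49.7% of all genes. An unadjusted p under 0.05 was found for 24 of 39, against 27.9% of all genes. Called were 3 of 9 members of complex III, 2 of 13 of complex IV and 5 of 17 of complex V. The groups did not overlap, with metformin above, for 16 of 39 members (8.73% of all genes). The values of the members lay close together: their SD was 0.15, near the median standard error of a single member, 0.15.

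In complex III, the called members were the electron carrier Cyc1 and the core proteins Uqcrc1 and Uqcrc2. Gene positions are those of GENCODE M21 on GRCm38. Cyc1 encodes cytochrome c1, the haem protein that hands electrons to cytochrome c (chr15:76343523-76346260, plus strand). In CPM it was 66.5, 72.6, 78.9 and 72.8 in NCD control and 104, 113, 96.3 and 109.7 in NCD metformin (log2 fold change 0.54 ± 0.11 SE, adjusted p = 0.0113). No metformin library reached down to the highest control, which was NCD control 3. Uqcrc1, a core protein that faces the matrix (chr9:108936633-108949623, plus strand), was 69.4, 76.4, 99.1 and 85.8 in NCD control and 114, 130.2, 113 and 100.5 in NCD metformin (log2 fold change 0.47 ± 0.12 SE, adjusted p = 0.0275). Its groups nearly touch, at NCD control 3 and NCD metformin 4. Uqcrc2, the other core protein (chr7:120635176-120659524, plus strand), was 72.3, 85.8, 102 and 91.1 against 106, 121, 106 and 149 (log2 fold change 0.46 ± 0.13 SE, adjusted p = 0.0385). NCD metformin 4 is the highest of these and NCD control 1 the lowest. The Rieske iron-sulfur protein Uqcrfs1 had 0.32 ± 0.11 (adjusted p = 0.0606) and did not pass. The other members of complex III that did not pass had values from 0.18 (Uqcrq) to 0.55 (Uqcrb).

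In complex IV, the called members were Cox6a1 and Cox8a, small nuclear subunits that surround the mitochondrially encoded core and that each have a muscle-type counterpart. Cox6a1 (chr5:115345642-115348981, minus strand) was 60.2, 67.4, 66.6 and 60.9 CPM in NCD control and 84.1, 107, 81.8 and 80.3 in NCD metformin (log2 fold change 0.47 ± 0.11 SE, adjusted p = 0.0224). NCD metformin 2 stands above the other 3 metformin libraries, which also all exceed the controls. Cox8a (chr19:7215153-7217616, minus strand) was 17.9, 20.7, 20.98 and 16.2 against 26.8, 28.01, 24.7 and 30.1 (log2 fold change 0.53 ± 0.12 SE, adjusted p = 0.0185), again with no overlap. Cox4i1, Cox5a and Cox5b, the larger nuclear subunits, had values of 0.36, 0.31 and 0.41 that did not pass (adjusted p = 0.104, 0.21 and 0.0569). Cox7a2l had 0.28 ± 0.10 (adjusted p = 0.0701).

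In complex V, the F1 head gave 3 of the 5 calls. Atp5b encodes the catalytic beta subunit (chr10:128083273-128090391, plus strand) and is the member with the most counts. It was 359, 415, 456 and 423 CPM in NCD control and 538, 615, 564 and 651 in NCD metformin (log2 fold change 0.52 ± 0.10 SE, adjusted p = 0.012). Every metformin library exceeds the highest control, again NCD control 3. Atp5a1, the alpha subunit, was 256, 287, 327 and 303 against 360.5, 398, 368 and 403 (log2 fold change 0.38 ± 0.10 SE, adjusted p = 0.0251). Atp5d, the delta subunit of the central stalk (chr10:80138632-80145818, plus strand), was 33.5, 33.5, 37.6 and 35.8 against 47.4, 56.5, 44.5 and 43.2 (log2 fold change 0.45 ± 0.11 SE, adjusted p = 0.0215). Neither gene's groups overlapped. Atp5o, the peripheral stalk protein known as OSCP (chr16:91925214-91931687, minus strand), was 62.7, 70.2, 78.8 and 66.2 against 95.0, 97.5, 85.2 and 89.3 (log2 fold change 0.40 ± 0.10 SE, adjusted p = 0.0239). Atp5g3, which encodes subunit c of the rotating membrane ring (chr2:73908447-73911326, minus strand), was 36.02, 38.5, 45.4 and 38.9 against 57.2, 61.7, 46.7 and 58.2 (log2 fold change 0.50 ± 0.14 SE, adjusted p = 0.0378). The Atp5o groups are well apart, while NCD metformin 3 lies just above NCD control 3 for Atp5g3. The other 12 tested members of complex V did not pass, with values from 0.10 (Atp5mpl, a small membrane subunit) to 0.42 (Atp5l, subunit g).

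**Figure D2:**
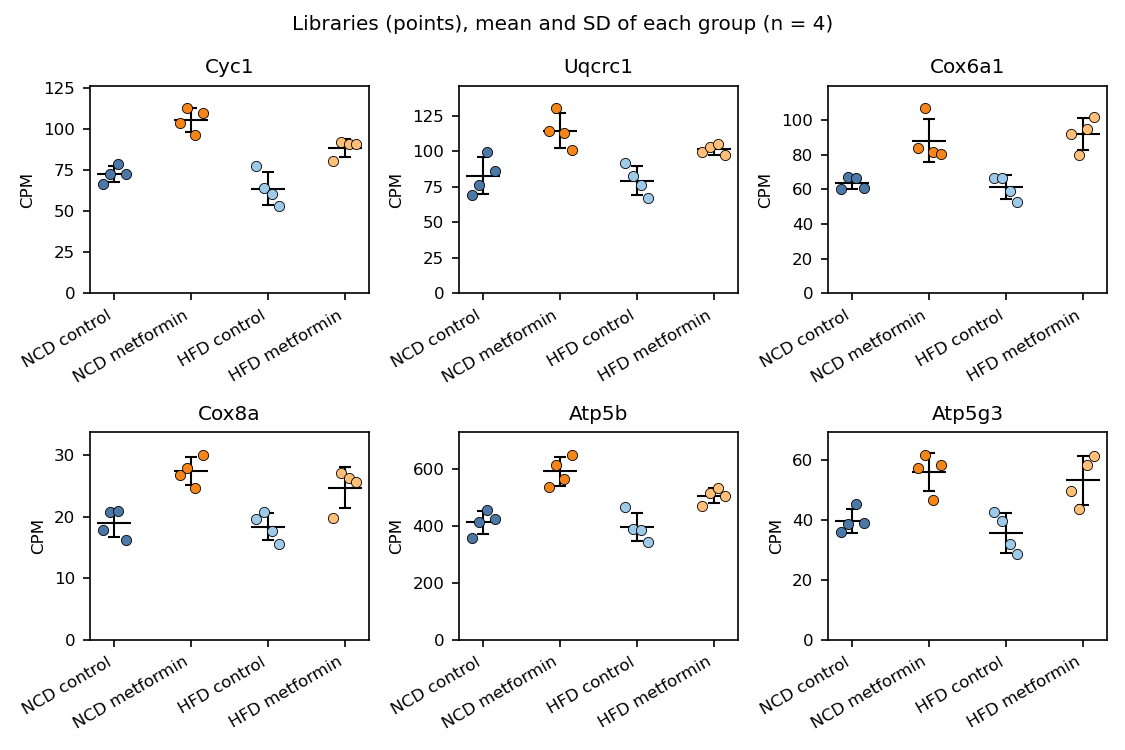
CPM (vertical axis) of 6 members in each library (points) of the 4 groups (horizontal axis), with the mean and SD of each group (n = 4). On NCD the metformin points of each gene lie above all control points; on HFD this holds for all but Cox8a, where 1 metformin library falls within the controls.

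Markers of other cells moved in part with this comparison. Summed adipocyte TPM was 683 to 1115 in NCD metformin and 545 to 584 in 3 NCD controls, with 1570 in NCD control 3. Of the 12 adipocyte markers 9 had positive values, with a median log2 fold change of 0.45 that exceeds the members' median, and 0 passed the test. Of 8 endothelial markers 7 were positive (median 0.47) and 1 was called higher, while their summed TPM overlapped, at 24.7 to 41.2 in metformin and 26.6 to 43.1 in control. All 5 tested markers of B and plasma cells were positive (median 0.58) and 0 passed, with summed TPM of 49.3 to 178 and 88.4 to 236. Of 8 macrophage markers 1 was positive (median -0.21) and 0 passed. The muscle markers fell, 14 of 17 tested called lower, and their only high library is NCD control 3. Without NCD control 3, 12 members were called higher and the median was 0.43, so the difference was larger without that library. The luminal and milk list had a median of 0.08, with 7 of 10 markers positive, 0 called higher and 1 called lower. Over all genes, 4.01% were called higher and 6.03% lower. In whole tissue, a change in the number of cells of a type and a change in RNA per cell cannot be told apart, and the part of adipocytes, endothelium and B and plasma cells in the result was not tested.

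Short coding sequences as a class were higher with metformin on NCD. Genes under 300 bases that are not members had a median of 0.17, those of 300 to under 600 bases 0.14, and longer ones -0.03. The members are short (median 339 bases against 1236 over all genes tested). Their medians exceeded those of other genes in each class. They were 0.33 for the 15 shortest, 0.36 for the next 15, and 0.40 for the 9 of 600 bases or more. Of those 9 long members 6 were called, against 3.84% of other genes of that length called higher. With the length trend removed, 8 members were called and the median was 0.23. With length and GC trends removed, 10 were called and it was 0.20. The part of coding length in the result was not tested.

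With a term for a gap in the numbers of the sample titles, which splits the libraries of each group, 10 members were called. Single libraries weigh on this count. It fell to 2 without NCD control 1, to 4 without NCD control 2 and to 2 without NCD metformin 2. The share of all genes called in these runs is not given. The members' median ranged from 0.302 to 0.426 when single libraries were left out. Atp5b and Cyc1 were called in every alternative run.

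The same comparison on HFD uses other libraries. With metformin, 0 of the 39 members were called at an adjusted p under 0.05 in edgeR's test, where 0.168% of all genes were (0.128% called higher). DESeq2 called 8 members. The shares above are edgeR's, and the share of all genes that DESeq2 called is not given, so the 8 have no background. The median of the members was 0.35 against 0.004 over all genes, 37 of 39 values were positive against 50.5% of all genes, and 24 of 39 had an unadjusted p under 0.05 against 12.8% of all genes. Groups did not overlap for 16 members, always with metformin above (3.72% of all genes). Without HFD control 4, the shallow library that had the lowest sum of all 3 complexes, the median was 0.28 and still 0 members were called. Short coding sequences were higher here too. Genes that are not members had medians of 0.135 under 300 bases, 0.113 from 300 to under 600 and -0.017 above. The members had 0.323, 0.391 and 0.374 in these classes, and the part of coding length was not tested. Adipocyte marker TPM was 476 to 822 in HFD metformin and 435 to 706 in HFD control, and 10 of 12 of these markers were positive with a median of 0.41, above that of the members. Of 5 B and plasma cell markers 4 were positive (median 0.76), of 8 macrophage markers 1 (median -0.31) and of 8 endothelial markers 4 (median -0.07). All 10 luminal and milk markers were positive (median 0.15). Of 17 tested muscle markers 14 were positive (median 1.22), with the highest summed TPM of the HFD libraries, 41.2, in HFD metformin 1. In these lists 0 markers passed, and their part in the result was not tested.

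The lowest adjusted p belonged to Cox6a1, at 66.9, 66.7, 59.1 and 52.6 CPM in HFD control and 92.2, 79.8, 94.9 and 102 in HFD metformin (log2 fold change 0.58 ± 0.12 SE, adjusted p = 0.0517). Its groups lie well apart. Cyc1 was 77.3, 64.1, 60.4 and 53.4 against 80.5, 92.2, 90.7 and 91.2 (log2 fold change 0.47 ± 0.11 SE, adjusted p = 0.0893), with HFD metformin 1 below its group. Cox7a2l, the supercomplex factor, was 14.3, 15.4, 16.9 and 16.6 against 21.1, 20.3, 21.7 and 21.4 (log2 fold change 0.42 ± 0.10 SE, adjusted p = 0.09), and its metformin libraries are nearly equal. Uqcrfs1 was 38.2, 37.5, 34.95 and 30.2 against 45.6, 43.4, 51.4 and 50.05 (log2 fold change 0.43 ± 0.11 SE, adjusted p = 0.116). Atp5g3 was 42.6, 39.5, 31.8 and 28.5 against 49.7, 43.5, 58.4 and 61.4 (log2 fold change 0.58 ± 0.14 SE, adjusted p = 0.119), with the groups just apart. Atp5d was 37.7, 36.98, 31.9 and 28.5 against 43.1, 48.98, 46.4 and 42.7 (log2 fold change 0.42 ± 0.11 SE, adjusted p = 0.13). In all 6 genes every HFD metformin library exceeded every HFD control.

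**Figure D3:**
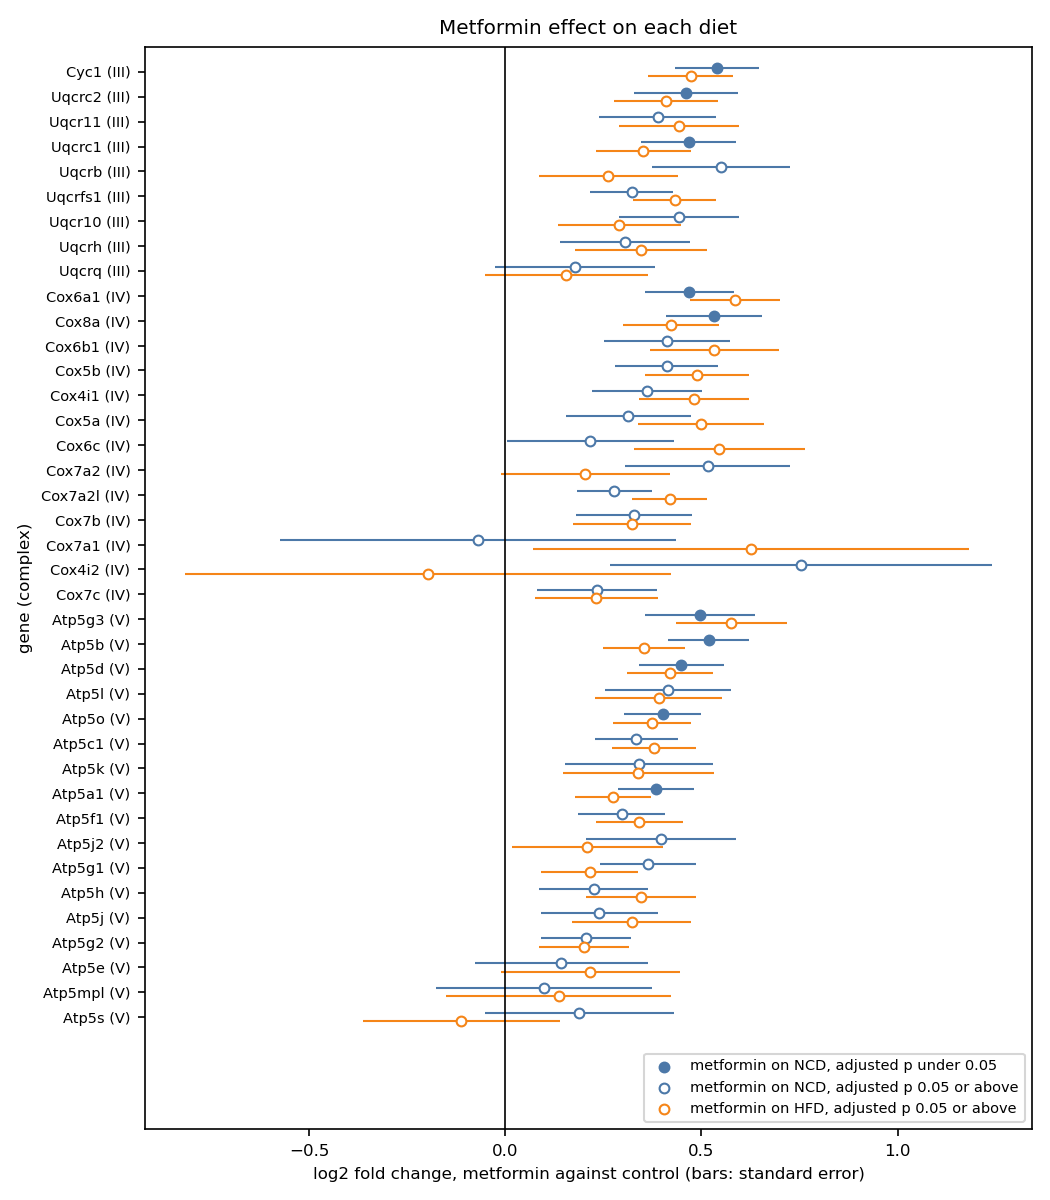
Log2 fold change of metformin against control (horizontal axis, bars show the standard error) for the 39 tested genes (vertical axis) on NCD (blue) and HFD (orange), with filled points for an adjusted p under 0.05. Nearly all points of both colours lie between 0.1 and 0.6, and the wide bars belong to Cox7a1 and Cox4i2.

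The metformin comparisons on NCD and HFD share no library, so their values can be set side by side. Both were positive for 36 of 39 members, against 32.5% of all genes, and for 33 of 39 the 2 log2 fold changes differed by less than 0.2. The exceptions to the sign were Cox7a1 on NCD and Cox4i2 and Atp5s on HFD, all with few counts. The test of the difference itself, the interaction of diet and metformin, called 0 of 39 members and 0.0% of all genes in edgeR's test; 0 members had an unadjusted p under 0.05 (9.94% of all genes), and DESeq2 called 0 members. No share of all genes called by DESeq2 is given here. The median interaction was -0.003 and its median standard error 0.21, so differences between the diets of that size were not resolved.

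Averaged over diets, 23 of 39 members were higher with metformin and 0 lower, against 5.82% of all genes higher and 5.57% lower, and all 39 values were positive (48.8% of all genes) with a median of 0.36. The median was 0.22 with the length trend removed, where 16 members were called, 0.22 with length and GC trends removed (18 called), and 0.23 with limma on log2(TPM + 1) (14 called). An unadjusted p under 0.05 was found for 33 members, against 28.9% of all genes. Without NCD control 3 the test called 21 members, without HFD control 4 it called 17, and without both 19. The 23 called were 7 of 9 members of complex III, 7 of 13 of complex IV and 9 of 17 of complex V. Since the average uses the libraries of both comparisons above, it is a more precise estimate and no separate evidence. Cyc1 had 0.51 ± 0.08 (adjusted p = 0.00153) and Cox6a1 0.53 ± 0.08 (adjusted p = 0.00174), with 8 of 8 metformin libraries above the mean of their controls for both. Members called here and in neither diet alone included Cox4i1 (0.42, adjusted p = 0.0156), Cox5b (0.45, adjusted p = 0.00888), Cox7a2l (0.35, adjusted p = 0.00639), Uqcrfs1 (0.38, adjusted p = 0.00707) and the F1 gamma subunit Atp5c1 (0.36, adjusted p = 0.00933). All 9 members of 600 bases or more were called, 10 of 15 from 300 to under 600 bases and 4 of 15 below. The members with the smallest values were Atp5s (0.04 ± 0.17) and Atp5mpl (0.12 ± 0.20), neither of which passed. Uqcrq (0.17 ± 0.15) and Atp5e (0.18 ± 0.16) did not pass either.

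The diet comparisons set HFD against NCD. Without metformin, 0 of 39 were called in edgeR's test (0.064% of all genes), 0 had an unadjusted p under 0.05 (7.04% of all genes) and DESeq2 called 0. The median was -0.06 against 0.003, with 9 of 39 values positive (50.5% of all genes). Each of the 27 alternatives also called 0. The share of all genes that DESeq2 called is not given, here or under metformin. When single libraries were left out, NCD control 3 and HFD control 4 among them, the median ran from -0.12 to 0.015. The lowest adjusted p was that of Cyc1 (-0.19 ± 0.11, adjusted p = 0.83). Its controls were 66.5, 72.6, 78.9 and 72.8 CPM on NCD and 77.3, 64.1, 60.4 and 53.4 on HFD, which overlap. Under metformin, edgeR's test called 0 of 39 (2.36% of all genes) and DESeq2 called 0, the median was -0.06, and 3 members had an unadjusted p under 0.05 (19.2% of all genes): Cox4i2 (-1.29, adjusted p = 0.195), Cyc1 (-0.25, adjusted p = 0.201) and Atp5b (-0.22, adjusted p = 0.249). For these 3 the groups did not overlap, with HFD below (4.01% of all genes). Atp5b and Cyc1 were called lower under metformin with library size only (-0.40, adjusted p = 0.0395, and -0.43, adjusted p = 0.039, in edgeR's test) and with limma on log2(TPM + 1) (-0.42, adjusted p = 0.0412, and -0.46, adjusted p = 0.033). The share of all genes called in these settings is not given. Without TMM scaling the members' median was -0.22 without metformin and -0.24 under metformin, where all genes moved to -0.16 and -0.18. With limma the members' medians were -0.248 and -0.24, where all genes had -0.11 and -0.1.

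Several subunits of complex IV exist as a common form and a muscle, heart or lung form. The common forms dominated: Cox4i1 made up at least 99.7% of the TPM of Cox4i1 and Cox4i2, Cox6a1 at least 97.2% of its pair, and Cox8a at least 95.95% of its pair, while Cox7a1 was 1.60 to 7.17% of Cox7a1 and Cox7a2. Cox6a2, the form of heart and skeletal muscle, had 47 counts in NCD control 3, 1 in HFD control 3 and 0 in the other 14 libraries. Cox8b, another muscle and brown fat form, had 30 counts in NCD control 3 and 0 to 16 elsewhere. Cox7a1, likewise a heart and muscle form, had 24 counts there and 1 to 16 elsewhere. Those 3 genes peaked in the library with 13040 counts of the muscle actin Acta1 and 262 counts of Ucp1, the uncoupling protein of brown fat, which had 0 to 9 counts elsewhere. Cox7a1 had a log2 fold change of -0.07 with metformin on NCD and 0.62 without NCD control 3; neither passed. Cox4i2, known from lung and from oxygen sensing cells, had 1 to 15 counts per library, with values of 0.75 ± 0.49 on NCD and -0.20 ± 0.62 on HFD that did not pass. Cox7b2 and Cox8c had 0 counts in every library, and Cox6b2 had 0 to 3. A count of 0 allows up to 3 counts per library, from counting error alone.

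**Figure D4:**
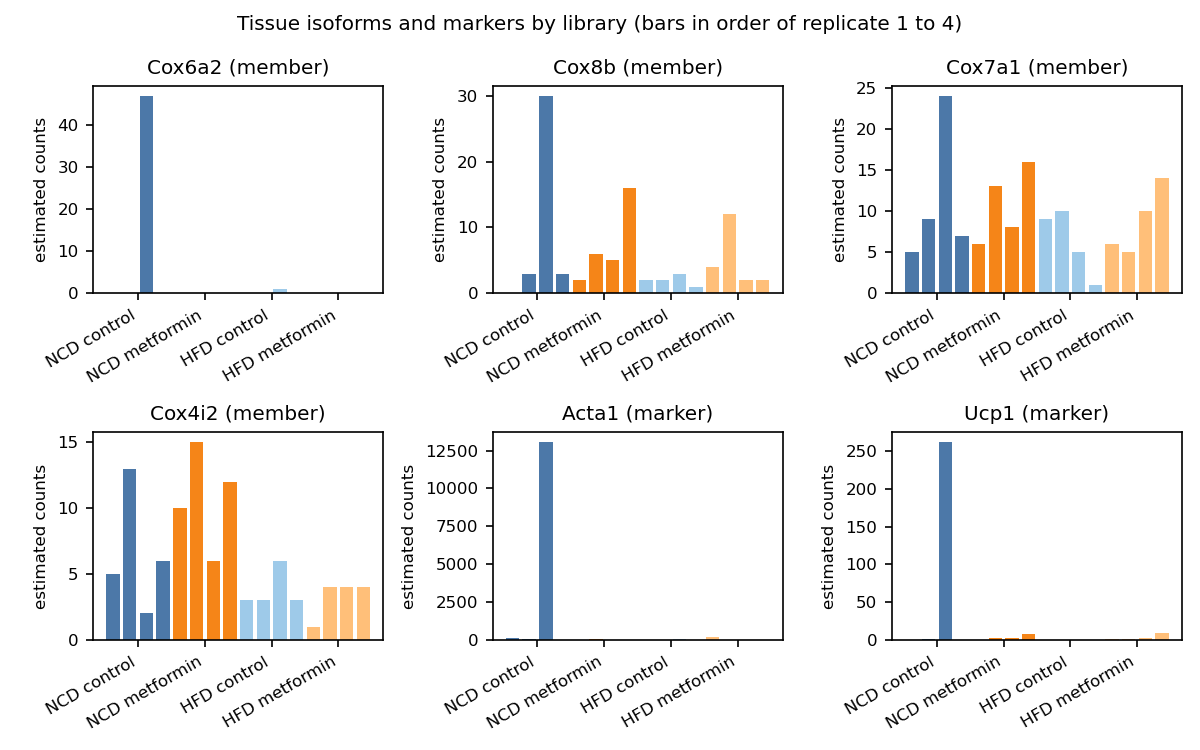
Estimated counts (vertical axis) of 4 tissue forms of complex IV subunits and of the markers Acta1 and Ucp1 in each of the 16 libraries (horizontal axis, replicates 1 to 4 within each group). NCD control 3 has the highest bar for Cox6a2, Cox8b, Cox7a1, Acta1 and Ucp1, and not for Cox4i2.

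Subunit c of the ATP synthase is made from 3 genes, Atp5g1, Atp5g2 and Atp5g3, whose mature proteins are the same and whose import sequences differ. Atp5g3 took the largest share of their summed TPM. Its share was 41.9, 40.5, 45.7 and 44.1% in NCD control and 48.5, 48.3, 44.6 and 45.01% in NCD metformin. Under HFD it was 41.9, 40.9, 40.2 and 38.1% in control and 45.9, 46.0, 46.2 and 46.9% in metformin. The HFD groups are apart, and on NCD they overlap through NCD control 3. Over both diets the share of Atp5g3 was 4.75 percentage points higher with metformin (exact permutation test within diet, two-sided, p = 0.00163, adjusted p = 0.0131 over 16 share tests, n = 4 per group). That of Atp5g2 was 25.0, 24.96, 23.3 and 22.5% against 20.8, 21.6, 20.3 and 21.2% on NCD, and 22.9, 24.6, 24.3 and 28.2% against 23.4, 22.6, 20.3 and 22.8% on HFD. It fell by 2.84 points with metformin (exact permutation p = 0.000816, adjusted p = 0.0131), without overlap on NCD. Atp5g1 differed by -1.92 points (exact permutation p = 0.0535, adjusted p = 0.285), and no share passed the test for diet. The fall in share is not a fall in level: Atp5g2 had log2 fold changes of 0.21 ± 0.11 on NCD and 0.20 ± 0.12 on HFD, which did not pass. Coding sequences of the 3 genes are alike in the part for the mature protein, so the authors' counting could split reads between them and these shares are uncertain.

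**Figure D5:**
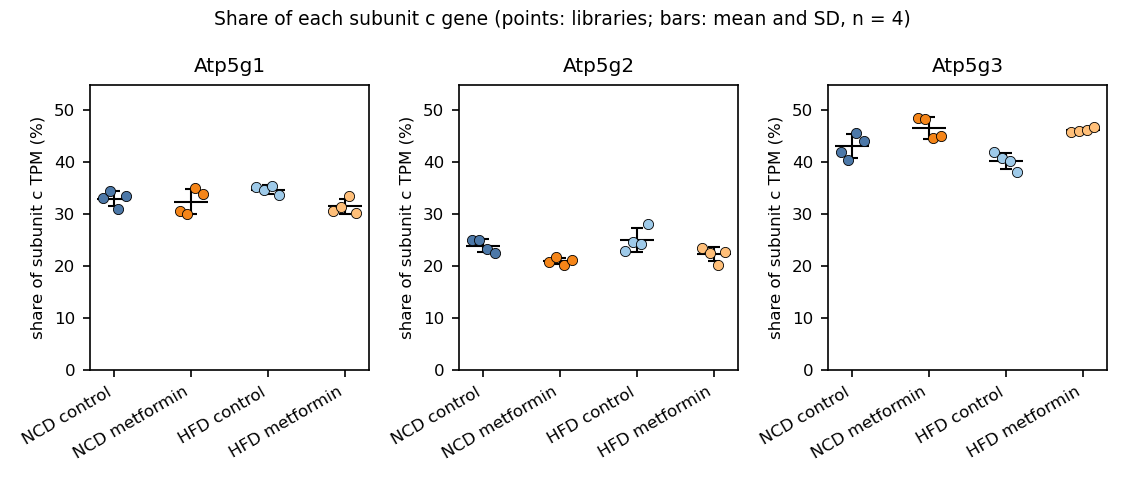
Share of each subunit c gene in the summed TPM of Atp5g1, Atp5g2 and Atp5g3 (vertical axis, percent) for each library (points) of the 4 groups (horizontal axis), with mean and SD (n = 4). The mean of Atp5g3 is higher and that of Atp5g2 lower with metformin, on NCD and on HFD, with some overlap of points for Atp5g3 on NCD and for Atp5g2 on HFD.

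Partners of these subunits were looked at in the same fit. The 6 mitochondrially encoded partners, mt-Cytb of complex III, mt-Co1, mt-Co2 and mt-Co3 of complex IV, and mt-Atp6 and mt-Atp8 of complex V, were all called higher with metformin on NCD (6 of 6, median 0.66). On HFD 1 of 6 passed, mt-Co1 (0.52 ± 0.09, adjusted p = 0.0205), and the median was 0.43. Over all genes, 4.01% were called higher on NCD and 0.128% on HFD, with medians of -0.003 and 0.004. mt-Co1 rose most on NCD (0.78 ± 0.09, adjusted p = 0.000589) and mt-Cytb least (0.49 ± 0.09, adjusted p = 0.00743). The mt-Atp6 and mt-Atp8 frames overlap, so their reads cannot be fully told apart. The difference between the mitochondrial and the nuclear sets was not tested.

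Of the nuclear subunits of complex I, which feeds electrons into complex III through ubiquinone, 8 of 35 were called higher on NCD (median 0.36), 1 on HFD (median 0.31) and 16 averaged, where 4.01%, 0.128% and 5.82% of all genes were. Complex II gave 4 of 8 on NCD (median 0.43), all 4 of them the structural genes Sdha, Sdhb, Sdhc and Sdhd, and 0 of 8 on HFD (median 0.22). On NCD, where 4.01% of all genes were called higher, assembly factors gave 1 of 6 for complex III (Uqcc1, 0.42 ± 0.12, adjusted p = 0.0355). For complex IV they gave 2 of 25, including Lrpprc, which stabilises mitochondrial mRNA (0.38 ± 0.10, adjusted p = 0.0309). The assembly and inhibitor genes of complex V gave 0 of 4. The medians of these 3 lists were 0.37, 0.23 and 0.25 on NCD, and 0.18, 0.06 and 0.09 on HFD, where 0 of their genes were called. The difference between the diets was tested by the interaction, which called 0 genes of complex II and of the assembly lists. It called 0.0% of all genes, so the absence of calls in these lists does not show that the diets are alike. Of the list of cytochrome c and loosely held subunits, Higd1a, Higd2a and Ndufa4 were tested and 1 of 3 passed on NCD, Higd1a (0.62 ± 0.17, adjusted p = 0.0355). Of 13 tested regulators of nuclear respiratory genes, 0 were higher and 1 was lower on NCD, a share near the 6.03% of all genes called lower. The gene was Gabpa, a subunit of the ETS-family factor GABP (-0.55 ± 0.16, adjusted p = 0.0387). The regulators had a median of -0.04 on NCD, and Nrf1 itself had -0.04 ± 0.13.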

How the data were processed

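RNA of 16 whole-gland libraries was quantified by the authors with Salmon 1.3.0, and the build is GRCm38.p6, per the submitters' processing notes, which also list DESeq2 1.28.1. Options for strand and bias are not given in the sources used. The deposited tables hold an estimated count for each transcript, per the file headers, and the TPM as deposited is relative to effective length. All 56929 transcripts with a same-version coding sequence had its length within 5 bases, so reads in untranslated regions were not measured, and few counts limit short genes.

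For each of 22196 genes, estimated counts of its transcripts (57452 in all) were added up and rounded; 752 transcripts (0.165 to 0.218% of counts) had no match and were left out. Genes passing filterByExpr (12506) were tested with edgeR 4.0.16 (R 4.3.3): quasi-likelihood test, 4 group means over 16 libraries, TMM, 12 residual degrees of freedom, Benjamini-Hochberg over all genes, two-sided, adjusted p under 0.05. Shares were tested by exact permutation, within diet for metformin and within treatment for diet (4900 permutations, smallest p 0.000408). Scripts were tested on simulated data. All members may be named; values by library are given for members called on NCD (up to 10 by p), up to 6 by p on HFD, and the tissue isoforms. Alternatives were 26 planned and 1 added after seeing the data, which leaves out both NCD control 3 and HFD control 4. The members and gene lists were chosen with earlier results of these data known. Depth sets the floor of 3 counts per library; intervals and floors cover counting error only.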

Additional observations from a re-analysis of the deposited data

Results flagged for a closer look

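In 6 of 160 groups of 4 values (40 per treatment group), 1 library lay further from the rest than Dixon's limit for 4 samples allows; chance gives about 1 in 20. NCD control 3 was the highest of its group for Cox6a2, at 1.49 CPM with the other 3 at 0, and for Cox8b, at 0.952 CPM with the others from 0 to 0.0976 CPM. In that library the summed muscle marker TPM was 1522, and these members were not tested for a difference. NCD metformin 2 was the highest for Cox6a1, at 107 CPM with the others from 80.3 to 84.1 CPM. NCD metformin 3 was the lowest for Cox5b, at 38.3 CPM with the others from 47.7 to 49.3 CPM. HFD metformin 1 was the lowest for Cyc1, at 80.5 CPM with the others from 90.7 to 92.2 CPM. HFD control 4, the shallowest library, was the lowest for Uqcrc2, at 72.7 CPM with the others from 88.4 to 90.1 CPM.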

How the results depend on the processing

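The direction of the members' median under metformin was positive in all 27 alternatives on each diet (0.196 to 0.426 on NCD, 0.226 to 0.416 on HFD). The number of members called on NCD was 6 with library size only, 16 with DESeq2, 2 with limma on log2(TPM + 1) and 2 to 13 when single libraries were left out; it was 15 without both NCD control 3 and HFD control 4. Atp5b and Cyc1 were called in all 27. The shares of all genes called are from the main edgeR run, and none is given for the alternatives. On HFD the number was 8 with DESeq2, 1 with a term for the gap in the title numbers and 0 to 1 when single libraries were left out. The averaged comparison called 14 with limma on log2(TPM + 1) and 16 to 25 when single libraries were left out; 13 of the 23 members were called in all 26 alternatives, and Atp5g1 and Uqcrb lost their call in 20 and Uqcr10 in 18. HFD under metformin called 2 with library size only and 2 with limma on log2(TPM + 1), all lower. Medians that moved were 0.196 on NCD with length and GC trends removed, and, averaged, 0.224 with the length trend, 0.222 with both trends removed and 0.23 with limma. For HFD without metformin the median was -0.223 with library size only and -0.248 with limma, and under metformin -0.238 and -0.24. Cox7a1 on NCD turned positive with the title gap term (0.019) and without both libraries (0.624), and ranged from -0.33 to 0.623 when single libraries were left out. Cox4i2 on HFD was 0.048 without both libraries, and -0.51 to 0.046 when single libraries were left out. The cause of these changes was not tested.

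Shares of Atp5g3 and Atp5g2 kept their direction and stayed past the threshold in all 17 alternatives (adjusted p 0.00653 to 0.0229). Shares that did not pass changed sign when single libraries were left out, with differences in percentage points for metformin of -0.00805 to 0.0366 (Cox4i1), -0.254 to 0.655 (Cox7a1) and -0.376 to 0.30 (Cox8a). For HFD they were -0.0078 to 0.040 (Cox6b1), -0.00873 to 0.463 (Cox6a1), -0.445 to 0.465 (Cox7a1) and -0.159 to 0.516 (Cox8a). No paired analysis was possible because the labels carry no replicate numbers. The depth of HFD control 4 and the short coding lengths limit what can be seen for Atp5mpl, Atp5e and the tissue isoforms.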
